A study of Mus musculus with 6 samples.

Results

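The genes described here carry or regulate the movement of sodium, chloride, bicarbonate, potassium, butyrate and water across the colon epithelium, together with the guanylin pathway. They were listed by symbol, by a rule that uses no threshold on measured values but was written with earlier results of these data known, and all 35 were found among the 52550 genes listed. By role, 16 were placed with absorption (uptake from the gut lumen), 11 with secretion, and 8 with both or neither.

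The 6 samples were colonic epithelium of male C57BL/6 mice, 3 from *Zfp90* fl/fl littermates and 3 from *Zfp90* ΔIEC mice. The labels give an age of 6 to 8 weeks. In *Zfp90* ΔIEC mice the loxP-flanked part of *Zfp90*, which encodes a zinc finger protein, is removed by a Cre that the Villin promoter drives along the intestinal epithelium, small intestine included. Every mouse of both genotypes had received azoxymethane (AOM, a carcinogen) at 10 mg/kg and, after 5 days, 3 cycles of 7 days of dextran sulfate sodium (DSS, which injures the colon lining, 2% in the labels) and 14 days of water. Mice were euthanized on day 80, and were thus older at sampling than the ages given. Epithelium was separated with EDTA and DTT. No untreated mice were included, so that every difference below is one of genotype upon AOM-DSS treatment. Genotypes were housed apart after weaning, and cage and genotype cannot be told apart. In the labels of *Zfp90* ΔIEC replicates 2 and 3 the genotype field carries another gene number, and both were grouped by title. *Zfp90* itself lay at 0.630, 0.490 and 0.569 FPKM in *Zfp90* fl/fl samples, above the 0.0846, 0.195 and 0.166 FPKM of *Zfp90* ΔIEC samples. FPKM is a level that divides the fragments of a gene by its transcript length in kilobases and by the depth of the sample, so that it can be compared between genes.

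The colon reclaims salt and water from its contents. Sodium enters colonocytes in exchange for protons or through the epithelial sodium channel, chloride enters in exchange for bicarbonate that carbonic anhydrases supply, butyrate made by bacteria enters through monocarboxylate transporters, and water follows. Secretion runs the other way, with chloride leaving through apical channels, potassium channels holding the driving force, and the peptides guanylin and uroguanylin acting on a receptor guanylate cyclase in the apical membrane.

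The promoters of 6 members are shown, chosen by the expression values of these genes. Whether the sequences bear on the differences was not tested. *Slc9a3*, *Aqp8* and *Slc26a3* had the largest differences on the absorption side, *Slc5a8* had the smallest p among members with lower values, and *Guca2a* and *Guca2b* are neighbours of which the former did not overlap between genotypes and the latter did. Each is the 250 bases before the start given by RefSeq (GRCm38.p6), 5′ to 3′ on the gene's own strand. *Slc26a3* is at chr12:31437969-31438218 (plus strand), inside the longer gene span of the GENCODE annotation, and *Slc9a3* is at chr13:74121163-74121412 (plus strand). *Aqp8* is at chr7:123462044-123462293 (plus strand) and *Slc5a8* at chr10:88885742-88885991 (plus strand). *Guca2a* is at chr4:119637482-119637731 (plus strand) and *Guca2b* at chr4:119658946-119659195 (minus strand), with 17.1 kb between the 2 genes. The capitals mark matches, on either strand, to the letters TTTAT (core of the motif of CDX2, an intestinal factor), GTTAAT (half-site of HNF1), AGATAA (motif of the GATA factors), TGTTCT (half-site of the glucocorticoid and mineralocorticoid receptors) or GGGCGG (known as the GC box).
Slc26a3: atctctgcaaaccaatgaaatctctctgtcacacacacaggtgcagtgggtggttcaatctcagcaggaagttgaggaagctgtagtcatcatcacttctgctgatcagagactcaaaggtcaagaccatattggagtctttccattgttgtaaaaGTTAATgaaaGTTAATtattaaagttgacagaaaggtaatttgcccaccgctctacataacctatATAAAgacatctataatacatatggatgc
Slc9a3: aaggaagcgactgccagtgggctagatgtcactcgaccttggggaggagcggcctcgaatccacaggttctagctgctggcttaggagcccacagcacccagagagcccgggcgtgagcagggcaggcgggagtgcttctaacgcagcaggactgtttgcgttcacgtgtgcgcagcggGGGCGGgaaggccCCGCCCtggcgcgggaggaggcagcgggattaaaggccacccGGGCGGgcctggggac
Aqp8: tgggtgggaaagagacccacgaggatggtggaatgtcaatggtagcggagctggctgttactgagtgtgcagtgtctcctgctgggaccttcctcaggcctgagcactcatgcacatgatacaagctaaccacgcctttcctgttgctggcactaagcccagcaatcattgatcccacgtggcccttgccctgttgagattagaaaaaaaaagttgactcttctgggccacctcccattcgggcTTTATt
Slc5a8: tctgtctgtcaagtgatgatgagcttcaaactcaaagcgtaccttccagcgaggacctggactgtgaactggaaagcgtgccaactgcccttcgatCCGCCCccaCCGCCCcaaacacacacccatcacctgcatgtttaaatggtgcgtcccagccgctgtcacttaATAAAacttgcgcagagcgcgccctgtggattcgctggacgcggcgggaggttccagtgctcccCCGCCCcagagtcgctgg
Guca2a: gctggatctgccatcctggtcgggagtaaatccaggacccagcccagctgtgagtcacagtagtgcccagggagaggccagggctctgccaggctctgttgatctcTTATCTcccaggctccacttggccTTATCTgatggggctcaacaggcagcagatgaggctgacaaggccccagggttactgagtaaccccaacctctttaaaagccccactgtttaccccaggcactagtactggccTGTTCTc
Guca2b: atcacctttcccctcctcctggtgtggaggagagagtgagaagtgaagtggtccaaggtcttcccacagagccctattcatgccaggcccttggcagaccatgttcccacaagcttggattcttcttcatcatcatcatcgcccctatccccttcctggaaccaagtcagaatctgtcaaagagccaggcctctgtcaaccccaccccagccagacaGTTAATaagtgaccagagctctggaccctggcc

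The *Slc26a3* window held 1 CDX2 core and 2 HNF1 half-sites and was 38.8% G or C, whereas the *Slc9a3* window held 3 GC boxes and was 67.6% G or C. *Aqp8* had 1 CDX2 core close to the start, and *Slc5a8* had 1 CDX2 core and 3 GC boxes. Between the neighbours, *Guca2a* had 2 GATA matches and 1 receptor half-site, and *Guca2b* had 1 HNF1 half-site. Letters of different motifs can share bases, but no 2 of the matches shown overlapped. Such short runs are common. Of 32851 RefSeq promoter windows of this length, 37.3% held the CDX2 core, 6.43% the HNF1 half-site, 9.99% the GATA motif, 16.1% the receptor half-site and 32.7% the GC box. Of the 24 members with a window in the RefSeq table, 7 held the CDX2 core, 2 the HNF1 half-site, 2 the GATA motif, 2 the receptor half-site and 18 the GC box. A match describes the letters and is not evidence of binding.

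Levels differed widely between the members. Carbonic anhydrase *Car1* had by far the highest level, with a mean over the 6 samples of 6289 FPKM, followed by *Guca2a* at 1026 FPKM, the sodium pump subunit *Atp1b1* at 406 FPKM and *Car2* at 380.2 FPKM. *Car1* alone made up between 59.5% and 66.1% of the summed FPKM of all 35 genes in *Zfp90* fl/fl samples and between 65.8% and 74.0% in *Zfp90* ΔIEC samples. At the other end, *Scnn1g*, *Slc26a6*, *Kcnma1* and *Aqp3* stayed under the filter of at least 1 FPKM in at least 3 samples. The other 31 members reached 1 FPKM in every sample and were tested between genotypes with limma on log2(FPKM + 1), among 11564 genes.

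**Figure D1:**
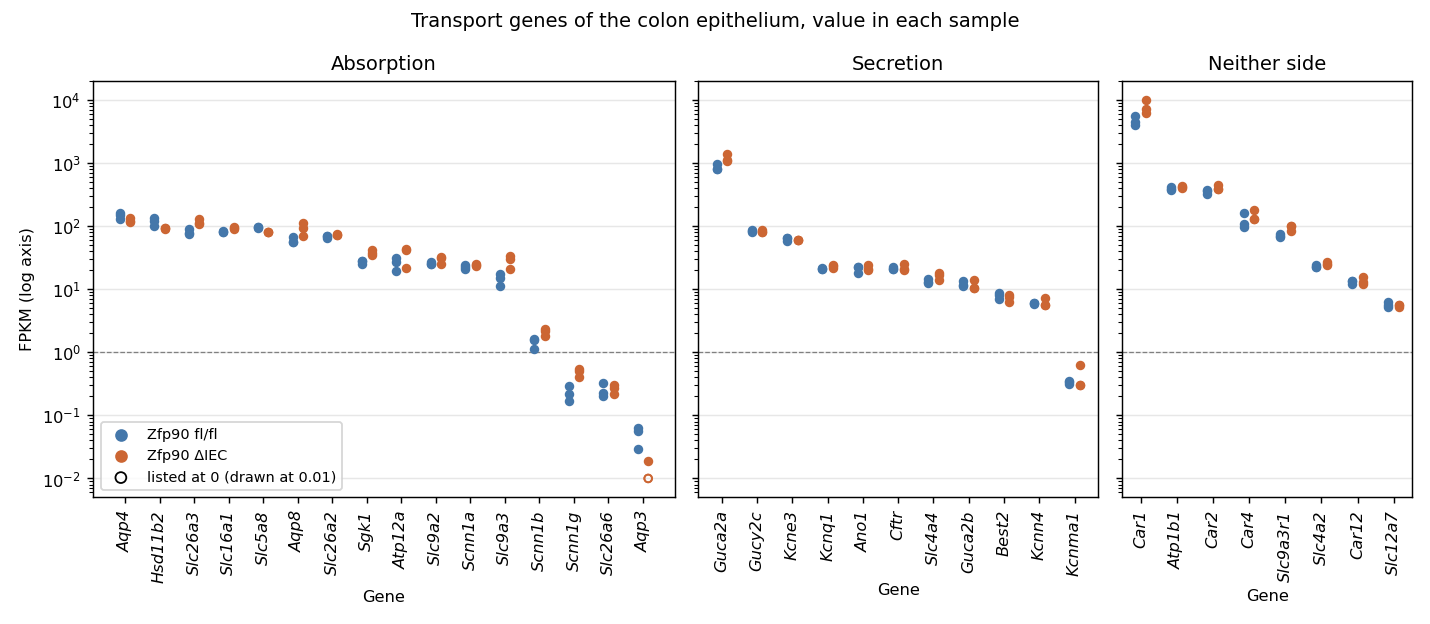
FPKM (log axis) of each of the 35 genes in each sample, Zfp90 fl/fl in blue and Zfp90 ΔIEC in orange, in panels for absorption, secretion and neither side, with the dashed line at 1 FPKM. Car1 and Guca2a lie above the other genes, and 4 genes lie below the line.

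No member passed an adjusted p of 0.05 in limma with Benjamini-Hochberg adjustment (0 of 31, beside 23 of 11564 genes, or 0.199%). With a block for replicate number, 4 of 31 members and 47 of 11564 genes passed. With the block and no filter, 0 members and 0 of 27805 genes passed. At an unadjusted p under 0.05, 12 of 31 members (38.7%) were higher in *Zfp90* ΔIEC samples, against 6.56% of all genes tested, and 3 of 31 (9.68%) were lower, against 8.09%. The 3 samples of each genotype did not overlap for 12 members that were higher (38.7%, against 8.73% of all genes tested) and for 2 that were lower (6.45%, against 12.6%). The share of members in the higher direction lay above that of all genes by both readings, and the share in the lower direction lay slightly above by the former and below by the latter. The median log2 fold change was 0.12 over the 31 members and -0.02 over all genes tested, and the median size without regard to sign was 0.19 and 0.09. The split of all genes at an unadjusted p under 0.05 was 759 higher and 935 lower as deposited, and 923 higher and 706 lower after median ratio scaling.

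**Figure D2:**
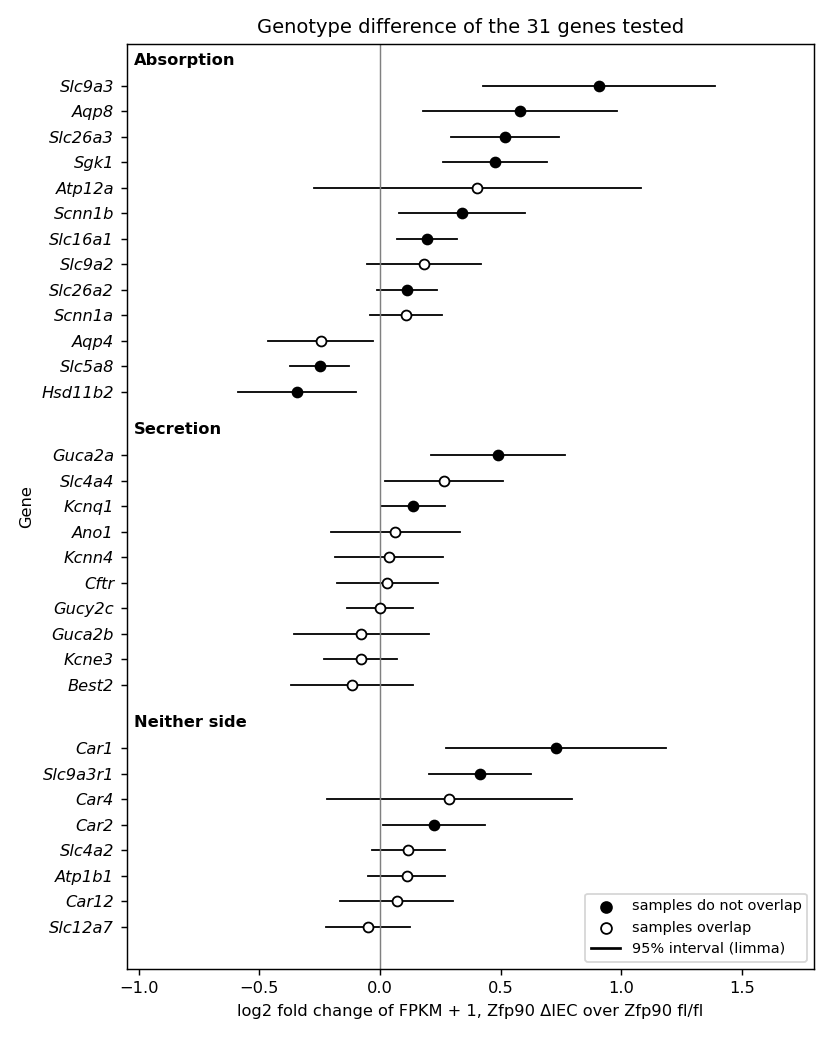
Log2 fold change of FPKM + 1, Zfp90 ΔIEC over Zfp90 fl/fl, for the 31 genes tested, by role, with 95% intervals from limma and filled points where the samples of the genotypes do not overlap. Of the 13 absorption genes 9 are filled, of the 10 secretion genes 2, and of the 8 others 3, against 21.3% of all genes tested.

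The content of the samples was read from marker lists. Epithelial markers (*Epcam*, *Cdh1*, *Vil1*, *Cdx2*, *Krt8*, *Krt18*, *Krt19*) summed to between 5684 and 6416 FPKM in *Zfp90* fl/fl samples and between 5632 and 6102 FPKM in *Zfp90* ΔIEC samples, and the defining markers of the labelled tissue were thus present at high levels in every sample. Mature colonocyte markers overlapped as well, at 5336 to 5875 and 4523 to 5936 FPKM, with 1 of 6 genes, *Cdhr5*, higher without overlap. Beside this and the counts that follow, 8.73% of all genes tested were higher and 12.6% lower without overlap. The 3 posterior Hox genes (*Hoxb13*, *Hoxa13*, *Hoxd13*), which mark distal position, also overlapped, at 83.8 to 101 and 68.1 to 97.8 FPKM. In contrast, leukocyte markers summed to between 4.11 and 5.59 FPKM in *Zfp90* fl/fl samples and between 0.847 and 1.24 FPKM in *Zfp90* ΔIEC samples. All 9 of those genes were lower without overlap, and *S100a8* and *S100a9* were listed at 0 in every *Zfp90* ΔIEC sample. However, 0 of these 9 genes passed the filter, and none exceeded 1.62 FPKM in any sample. Their fragments were not estimated. In the limma fit without the filter, *Itgam* had an adjusted p of 0.0199, or 0.291 with the replicate block. The other leukocyte genes had an adjusted p of 0.156 or more in the limma fit without filter and block. Goblet cell markers were higher in sum (1349.9 to 1737 against 1821 to 2358 FPKM), with 2 of 6 genes, *Muc2* and *Zg16*, free of overlap. Crypt stem and cycling cell markers were also higher in sum (48.9 to 53.4 against 60.7 to 63.1 FPKM), which came from *Mki67* and *Top2a*, the 2 of 6 genes without overlap. *Mki67* rose from 22.6, 21.8 and 22.6 FPKM to 29.1, 30.2 and 30.6 FPKM (limma with Benjamini-Hochberg adjustment, adjusted p = 0.0478), whereas *Lgr5* overlapped. That call was close to the threshold, with an adjusted p between 0.0409 and 0.291 over the alternatives of the limma fit (0.0833 with the replicate block). Enteroendocrine and tuft cell markers summed to between 53.8 and 56.7 against between 64.1 and 82.0 FPKM, carried by *Chga* and *Chgb*, the 2 of 6 genes higher without overlap. The tuft cell markers *Dclk1*, *Trpm5* and *Pou2f3* stayed below 0.4 FPKM in every sample. Of these, 2 (*Dclk1* and *Pou2f3*) were lower without overlap. Fibroblast markers (0.221 to 0.409 against 0.120 to 0.702 FPKM), smooth muscle markers (0.532 to 1.08 against 1.07 to 1.29 FPKM) and endothelial and nerve markers (4.86 to 5.70 against 4.74 to 9.06 FPKM) overlapped. The part of these lists in the transport genes was not tested. In bulk epithelium, fewer cells of a type and less RNA per cell cannot be told apart.

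**Figure D3:**
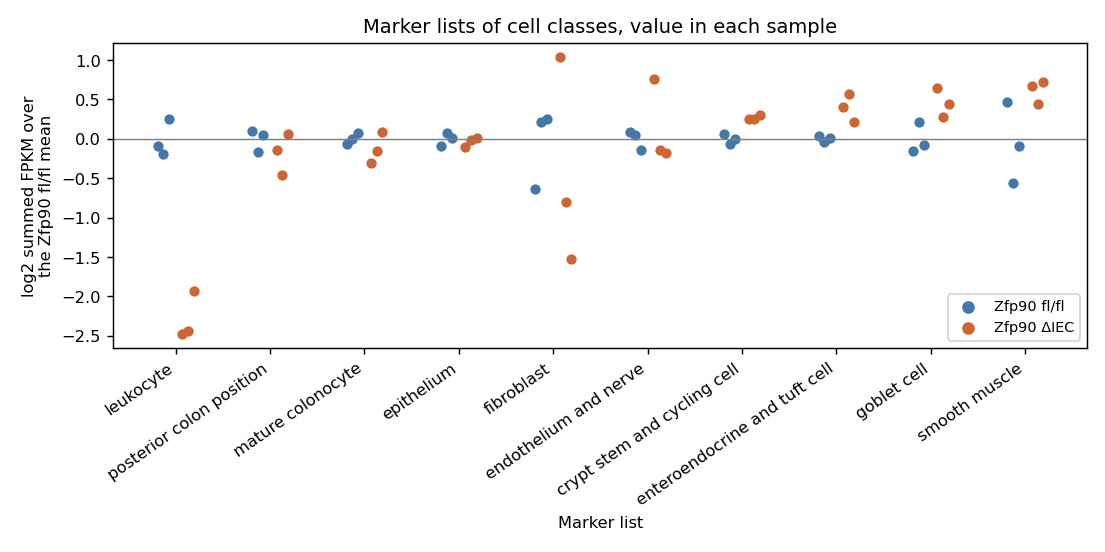
Summed FPKM of each marker list in each sample, as log2 over the Zfp90 fl/fl mean, Zfp90 fl/fl in blue and Zfp90 ΔIEC in orange. Leukocyte markers lie lower in the 3 Zfp90 ΔIEC samples, and epithelial and mature colonocyte lists overlap. The sums of the goblet, the cycling, and the enteroendocrine and tuft lists lie higher, the last through Chga and Chgb.

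Electroneutral salt absorption held the largest single difference, that of *Slc9a3*. *Slc9a3* encodes the main apical sodium-proton exchanger, *Slc26a3* the apical chloride-bicarbonate exchanger that works beside it, and *Slc9a3r1* a scaffold of the brush border that binds the former. All 3 were higher in each *Zfp90* ΔIEC sample than in any *Zfp90* fl/fl sample. *Slc9a3* was at 11.2, 17.6 and 14.9 FPKM in *Zfp90* fl/fl samples and at 21.3, 30.2 and 33.3 FPKM in *Zfp90* ΔIEC samples. Its level on the FPKM + 1 scale was 1.87-fold higher in the latter (95% interval 1.34 to 2.61), the largest difference among the 31 members tested. On the log2 scale this was 0.91 with a standard error of 0.203 (limma adjusted p = 0.125, Benjamini-Hochberg over all genes tested).

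*Slc26a3* was at 76.0, 76.8 and 89.9 FPKM in *Zfp90* fl/fl samples and at 108, 112 and 129 FPKM in *Zfp90* ΔIEC samples, with means of 80.9 ± 7.82 and 116 ± 10.9 FPKM (SD, n = 3 each). The log2 fold change was 0.52 with a standard error of 0.0944 (limma adjusted p = 0.0873), the smallest p among the members. *Slc9a3r1* was at 67.2, 69.8 and 76.2 FPKM and at 84.5, 103 and 99.1 FPKM, a log2 fold change of 0.42 (standard error 0.0892, limma adjusted p = 0.119). Each of these genes was therefore higher by 1.33-fold to 1.87-fold, beyond the spread of either group, without passing the adjusted threshold.

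Their close relatives differed less. *Slc9a2*, a second sodium-proton exchanger of the apical membrane, overlapped between genotypes at 24.8, 27.4 and 25.5 against 25.4, 30.8 and 32.8 FPKM, with a log2 fold change of 0.18 and a 95% interval of -0.05 to 0.42. The sulfate transporter *Slc26a2* was at 69.1, 65.9 and 70.3 FPKM and at 75.6, 72.9 and 73.5 FPKM. These values did not overlap, but the log2 fold change was 0.11 with an interval of -0.01 to 0.24 (limma adjusted p = 0.387). The anion exchanger *Slc26a6* was low in every sample, between 0.204 and 0.326 FPKM, and overlapped.

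Carbonic anhydrases turn carbon dioxide and water into bicarbonate and protons, the ions that these exchangers trade for chloride and sodium. The cytosolic *Car1* was at 4033, 5628 and 4458 FPKM in *Zfp90* fl/fl samples and at 6349, 10059 and 7206 FPKM in *Zfp90* ΔIEC samples. *Zfp90* ΔIEC replicate 2 was the highest, and no *Zfp90* ΔIEC sample fell within the *Zfp90* fl/fl range. The means were 4706 ± 826 and 7871 ± 1942 FPKM (SD, n = 3), and the log2 fold change was 0.73 with a 95% interval of 0.27 to 1.18 (limma adjusted p = 0.162). *Car2*, the other cytosolic form among the members, was at 359, 322 and 369.9 FPKM and at 457, 385 and 388 FPKM, without overlap and with a smaller log2 fold change of 0.22 (interval 0.01 to 0.43, limma adjusted p = 0.322). The membrane-bound forms overlapped. *Car4*, which faces the lumen, was at 109.7, 95.8 and 159.8 FPKM and at 131, 128 and 183 FPKM, with replicate 3 the highest in both genotypes and a log2 fold change of 0.29 (interval -0.22 to 0.79). *Car12* had a log2 fold change of 0.07 (interval -0.16 to 0.30).

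**Figure D4:**
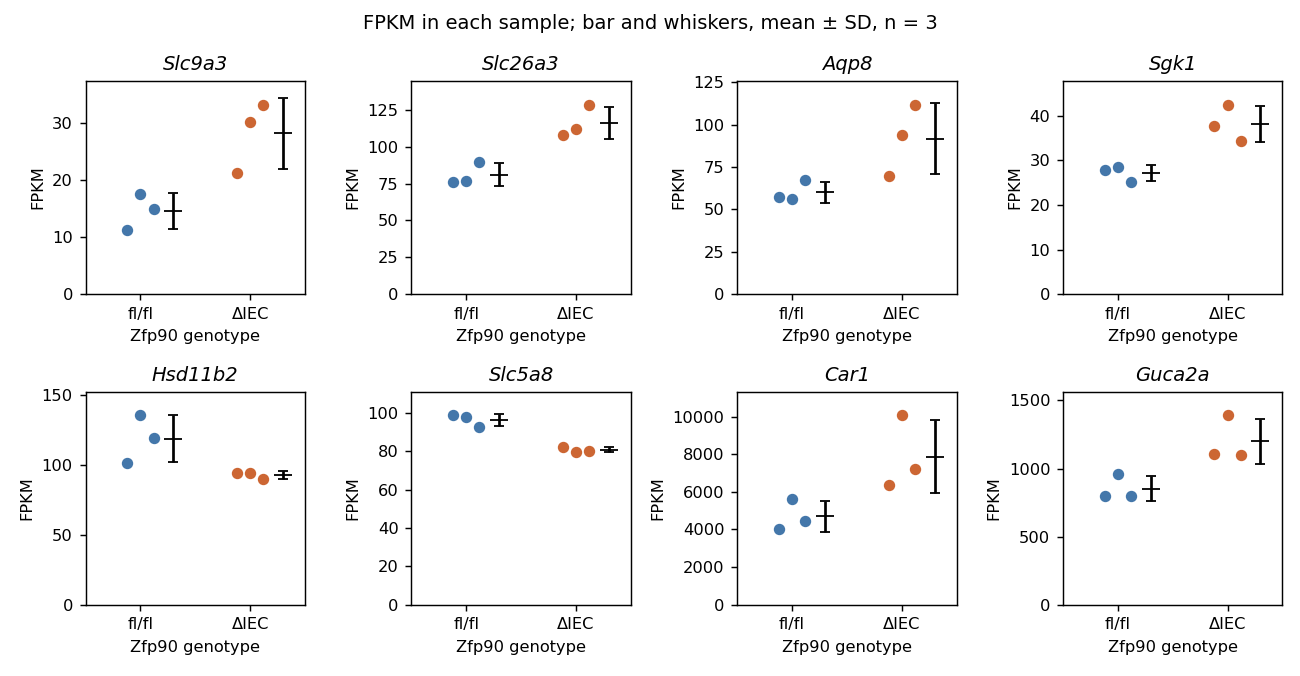
FPKM of 8 genes in each sample by Zfp90 genotype, with the mean and SD (n = 3) beside the points and each axis starting at 0. Slc9a3, Slc26a3, Aqp8, Sgk1, Car1 and Guca2a are higher and Hsd11b2 and Slc5a8 lower in Zfp90 ΔIEC samples, without overlap in any of the 8.

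The sodium channel and the aldosterone pathway, which set electrogenic sodium uptake in the distal colon, gave a mixed picture. *Sgk1*, a kinase induced by aldosterone and glucocorticoids that keeps the channel at the membrane, was at 27.8, 28.6 and 25.1 FPKM in *Zfp90* fl/fl samples and at 37.7, 42.5 and 34.4 FPKM in *Zfp90* ΔIEC samples. This was a 1.39-fold higher level (95% interval 1.20 to 1.61, limma adjusted p = 0.0927). *Hsd11b2*, the enzyme that inactivates glucocorticoids and so reserves the mineralocorticoid receptor for aldosterone, lay the other way. It was at 101, 135 and 119 FPKM and at 94.3, 94.4 and 89.6 FPKM, a log2 fold change of -0.34 (interval -0.59 to -0.10, limma adjusted p = 0.209). The *Zfp90* ΔIEC values sat close together, and most of the spread was among the *Zfp90* fl/fl samples.

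Of the channel's own subunits, *Scnn1a* was well above the others at 22.7 ± 1.36 and 24.5 ± 0.815 FPKM (SD, n = 3) and overlapped, with a log2 fold change of 0.11 (interval -0.04 to 0.26). *Scnn1b* was at 1.12, 1.595 and 1.63 FPKM and at 2.31, 1.82 and 2.15 FPKM, without overlap and with a log2 fold change of 0.34 (interval 0.08 to 0.60, limma adjusted p = 0.242). *Scnn1g*, under the filter, was at 0.221, 0.298 and 0.171 FPKM and at 0.410, 0.4996 and 0.545 FPKM, also without overlap. An estimate from the steps between low values puts these at 14.6 to 25.2 fragments and 33.5 to 45.8 fragments per sample, and in the fit without the filter its adjusted p was 0.232 (limma). The beta and gamma subunits, which limit the assembly of channels in the colon, were thus both low and both higher in each *Zfp90* ΔIEC sample. The colonic proton-potassium pump *Atp12a* varied widely within both genotypes, at 31.4, 19.3 and 27.5 FPKM and at 41.4, 21.8 and 43.7 FPKM, and replicate 2 was the lowest in each (log2 fold change 0.40, interval -0.27 to 1.08).

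The butyrate transporters lay on opposite sides. *Slc5a8*, which takes up butyrate with sodium at the apical membrane, was at 98.7, 97.8 and 92.5 FPKM in *Zfp90* fl/fl samples and at 82.3, 79.9 and 80.1 FPKM in *Zfp90* ΔIEC samples. The difference was small and even across samples, at 96.3 ± 3.36 against 80.8 ± 1.33 FPKM (SD, n = 3) with -0.25 as its log2 fold change (standard error 0.0522, limma adjusted p = 0.115). *Slc16a1*, which carries butyrate with a proton, was at 81.6, 81.6 and 84.6 FPKM and at 94.0, 91.9 and 98.1 FPKM, a log2 fold change of 0.19 (standard error 0.0523, limma adjusted p = 0.170). Neither gene overlapped between genotypes. In *Zfp90* fl/fl samples *Slc5a8* was above *Slc16a1* in all 3, and in *Zfp90* ΔIEC samples it was below in all 3.

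The water channels also lay on opposite sides. *Aqp8*, found toward the lumen in colonocytes, was at 57.1, 56.0 and 67.4 FPKM in *Zfp90* fl/fl samples and at 69.6, 94.1 and 112 FPKM in *Zfp90* ΔIEC samples. *Zfp90* ΔIEC replicate 1 was only just above the highest *Zfp90* fl/fl sample, and the log2 fold change was 0.58 with an interval of 0.18 to 0.98 (limma adjusted p = 0.201). *Aqp4*, a basolateral water channel, was at 131, 150.4 and 162 FPKM and at 118, 134 and 121 FPKM, which overlap, with a log2 fold change of -0.25 (interval -0.46 to -0.03, limma adjusted p = 0.295). *Aqp3* was near the limit of detection, at 0.0632, 0.0292 and 0.0557 FPKM in *Zfp90* fl/fl samples, while *Zfp90* ΔIEC replicate 2 had 0.0191 FPKM and replicates 1 and 3 were listed at 0. This is at most 2.9 estimated fragments.

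Most genes of the secretory machinery overlapped between genotypes. *Cftr*, the cyclic AMP-activated route for chloride and bicarbonate into the lumen, was at 20.6, 21.1 and 22.5 FPKM in *Zfp90* fl/fl samples and at 24.9, 20.1 and 20.8 FPKM in *Zfp90* ΔIEC samples. Its log2 fold change was 0.03, with a 95% interval of -0.18 to 0.24. The calcium-activated chloride channel *Ano1* (0.06, interval -0.20 to 0.33) and the bicarbonate channel *Best2* of goblet cells (-0.12, interval -0.37 to 0.14) overlapped as well. *Best2* was at 8.26, 8.65 and 6.98 FPKM against 8.02, 6.27 and 7.54 FPKM, while *Muc2* was at 440.2, 444 and 431 FPKM against 1009.6, 593 and 465 FPKM in the same samples. *Slc4a4*, which loads bicarbonate at the basolateral side, was at 12.7, 14.7 and 13.1 FPKM and at 18.2, 14.1 and 17.1 FPKM, overlapping through *Zfp90* ΔIEC replicate 2 (log2 fold change 0.27, interval 0.02 to 0.51, limma adjusted p = 0.312).

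Among the potassium channels that sustain secretion, the basolateral *Kcnq1* was at 21.5, 21.006 and 20.6 FPKM and at 22.1, 23.5 and 24.2 FPKM, without overlap but with a log2 fold change of 0.14 (interval 0.00 to 0.27, limma adjusted p = 0.327). Its partner subunit *Kcne3* had a log2 fold change of -0.08 (interval -0.23 to 0.07) at a mean of 63.4 and 59.8 FPKM. The calcium-activated *Kcnn4* had one of 0.04 (interval -0.19 to 0.26). The apical *Kcnma1*, under the filter, was at 0.309, 0.338 and 0.356 FPKM and at 0.633, 0.305 and 0.306 FPKM, where *Zfp90* ΔIEC replicate 1 stood above the rest.

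The guanylin pathway differed in one ligand. *Guca2a* encodes guanylin, the main ligand of the colon, and was at 799, 959 and 799 FPKM in *Zfp90* fl/fl samples and at 1109.95, 1389.8 and 1097 FPKM in *Zfp90* ΔIEC samples. The level was 1.40-fold higher in the latter (95% interval 1.16 to 1.70), with a log2 fold change of 0.49 (standard error 0.117, limma adjusted p = 0.134). *Guca2b* encodes uroguanylin and sits next to *Guca2a* on chromosome 4, yet overlapped, at 11.4, 13.5 and 11.8 FPKM against 13.9, 10.4 and 10.5 FPKM (log2 fold change -0.08, interval -0.36 to 0.20). The receptor *Gucy2c* was at 83.1, 81.6 and 86.3 FPKM and at 88.2, 81.9 and 80.8 FPKM, with a log2 fold change of 0.00 and an interval of -0.14 to 0.14.

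The remaining genes supply both directions of transport. *Atp1b1*, the beta subunit of the sodium pump, was at 383, 371 and 416 FPKM against 421, 401 and 441 FPKM and overlapped (log2 fold change 0.11, interval -0.05 to 0.27). The basolateral anion exchanger *Slc4a2* (0.12, interval -0.03 to 0.27) and the potassium-chloride cotransporter *Slc12a7* (-0.05, interval -0.22 to 0.13) overlapped too. In the annotation 13.7% of the exon bases of *Slc4a2*, 13.9% of those of *Atp12a* and 18.7% of those of *Atp1b1* lie opposite exons of another gene on the other strand. These other genes (*Fastk*, *Gm10873* and *Nme7*) had means of 9.07, 0.541 and 1.27 FPKM, beside 24.3, 30.9 and 406 FPKM for the members. The labels describe the libraries as strand-specific, but the counting setting is not given in the sources used here, so that reads of those exon bases may be shared.

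Absorption was then set against secretion. Of 13 absorption genes tested, 6 were higher and 3 lower at an unadjusted p under 0.05, 7 were higher and 2 lower without overlap, and the median log2 fold change was 0.19. By p this is 46.2% higher and 23.1% lower, against 6.56% and 8.09% of all genes tested, and by overlap 53.8% and 15.4%, against 8.73% and 12.6%. Of 10 secretion genes, 3 were higher (*Guca2a*, *Slc4a4* and *Kcnq1*) and 0 lower at that p, 2 were higher without overlap, and the median was 0.03. The share by p (3 of 10) was thus also above the 6.56% of all genes. By overlap, 20.0% were higher and 0% lower, against 8.73% and 12.6% of all genes. Taken in either direction, the 2 of 10 without overlap was close to the 21.3% of all genes. The difference between the roles was not tested. Of the 8 genes placed with neither, 3 were higher (*Car1*, *Slc9a3r1* and *Car2*) and 0 lower by either reading, with a median of 0.17 and a share of 37.5%. Within each sample, the mean log2(FPKM + 1) of the absorption genes exceeded that of the secretion genes by 0.43, 0.40 and 0.50 in *Zfp90* fl/fl samples and by 0.50, 0.59 and 0.69 in *Zfp90* ΔIEC samples. The groups only just failed to overlap, since *Zfp90* fl/fl replicate 3 lay at 0.499 and *Zfp90* ΔIEC replicate 1 at 0.502. The absorption mean itself was 5.30, 5.36 and 5.40 against 5.53, 5.55 and 5.66, whereas the secretion mean overlapped, at 4.87, 4.96 and 4.90 against 5.03, 4.96 and 4.97. Genes are not replicates and were chosen with earlier results known, so that these are descriptions and carry no p.

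**Figure D5:**
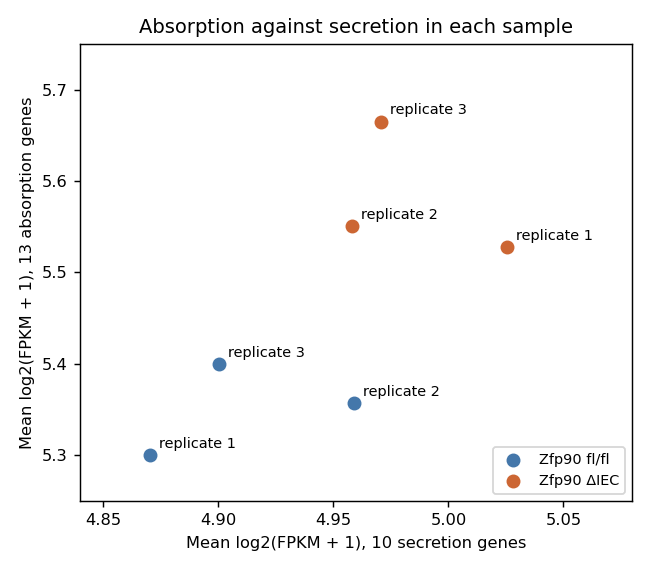
Mean log2(FPKM + 1) of the 13 absorption genes against that of the 10 secretion genes in each sample, Zfp90 fl/fl in blue and Zfp90 ΔIEC in orange. The Zfp90 ΔIEC samples lie higher on the absorption axis (5.53 to 5.66 against 5.30 to 5.40), while the genotypes overlap on the secretion axis.

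Other transport genes of the colon were read from a second list of 44, covering pump subunits, regulators, receptors and further channels, of which 33 passed the filter. None passed an adjusted p of 0.05 in limma (0 of 33), and 4 were higher and 0 lower at an unadjusted p under 0.05 (12.1%, against 6.56% of all genes tested in the higher direction). The genotypes did not overlap for 7 that were higher (21.2%, against 8.73%) and 2 that were lower (6.06%, against 12.6%), and the median log2 fold change was 0.07. The largest of these was *Aqp1*, a water channel, at 26.3, 20.6 and 23.2 FPKM in *Zfp90* fl/fl samples and 37.1, 36.1 and 29.7 FPKM in *Zfp90* ΔIEC samples (log2 fold change 0.53, standard error 0.115, limma adjusted p = 0.120). The potassium channel *Kcnk5* was at 21.6, 24.6 and 24.0 against 27.6, 28.7 and 30.96 FPKM (0.30 on the log2 scale, limma adjusted p = 0.134). *Nr3c2*, the mineralocorticoid receptor itself, was at 14.3, 13.8 and 12.7 against 16.7, 15.1 and 17.1 FPKM (0.25, limma adjusted p = 0.199). *Ezr*, the membrane linker that *Slc9a3r1* binds, was at 174, 187 and 176 against 203, 205 and 213 FPKM (0.21, limma adjusted p = 0.160), and the kinase *Stk39* was at 7.49, 8.40 and 8.18 against 10.4, 8.55 and 8.69 FPKM (0.17, limma adjusted p = 0.410). *Slc12a2*, named for its role as the basolateral chloride entry for secretion, was at 54.5, 55.1 and 49.2 against 74.3, 47.0 and 49.3 FPKM and overlapped.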

How the data were processed

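RNA of colonic epithelium was sequenced from 6 samples as strand-specific paired reads of 150 bp. The deposited values are FPKM per gene, made by the authors from mapped reads. The paper names TopHat and Cuffdiff with a human genome, whereas the submitters' processing notes list FastQC, STAR 2.5, Cuffnorm, DESeq 1.22.1 and a mouse genome. The tables hold mouse Ensembl identifiers and no coordinates. Of these, 52403 had a symbol in GENCODE and 147 had none.

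FPKM were transformed to log2(FPKM + 1), which understates the fold change of low genes. A gene was kept if 3 or more samples reached 1 FPKM, and the 11564 that remained were compared between genotypes with limma 3.58.1 in R 4.3.3, with an intensity trend and Benjamini-Hochberg adjustment, and genes under the filter were read from the same fit without it. Samples labelled as separate replicates were taken as such. The labels do not say how many mice each holds, and p-values measure the spread between these samples. Members, roles, lists and tests were chosen with earlier results of these data known. All members are named. Every sample's value is given for members without overlap and for the highest of each role, and of other transport genes the 5 largest differences without overlap are named.

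Depth is not part of the files. The steps between low values put it at 28.1 to 30.9 M fragments per sample, assuming fragments of 200 bases, with 58.6% to 63.1% of values within 0.1 of a whole step, so that the estimate is rough. Summed FPKM were 429999 to 446674. The scripts were tested on simulated data. Alternatives were a pseudocount of 0.1, testing without the filter, quantile normalization, scaling by median ratios, a replicate block, leaving out each sample, an adjusted p under 0.01, and *Car1* and *Car4* counted with absorption. Those on the number of members at an unadjusted p under 0.05, and on overlap after rescaling, and the block without the filter, were added after seeing the data. Other experiments of the study were not analysed here.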

Additional observations from a re-analysis of the deposited data

How the results depend on the processing

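The number of members past an adjusted p of 0.05 in limma stayed at 0 under every alternative except the replicate block, under which it was 4: *Slc26a3* (adjusted p = 0.0403), *Slc9a3* (0.0423), *Guca2a* (0.0487) and *Car1* (0.0403). Deviations from the group means correlated across genes by 0.194, 0.110 and 0.0782 between samples that share a number. Each sample correlated best with its own number. The paper's methods name no replicate block, so the fit without it was kept as the main one. By gene, the block is otherwise given only for *Mki67* and *Itgam*. With the block and no filter, chosen after seeing the data, 0 members and 0 of 27805 genes passed, and 2833 genes had an unadjusted p under 0.05. Of all genes, 23 passed, against 13 with a pseudocount of 0.1, 15 without the filter, 47 with the block (18 shared with the 23), and 10 to 21 when 1 sample was left out, with 10 without *Zfp90* fl/fl replicate 2. Members at an unadjusted p under 0.05 numbered 15 and ranged from 11 to 15 when 1 sample was left out, and those without overlap numbered 14, against 15 after median ratio scaling and 12 after quantile normalization. The absorption minus secretion median log2 fold change of 0.16 was 0.25 with *Car1* and *Car4* counted as absorption, and 0.13 to 0.24 when 1 sample was left out, with 0.24 without *Zfp90* ΔIEC replicate 1. The secretion median was between -0.000715 and 0.0495 when 1 sample was left out, the former without *Zfp90* fl/fl replicate 1. Genes whose log2 fold change was near 0 changed sign when 1 sample was left out, with ranges of -0.0608 to 0.0857 for *Cftr*, -0.0667 to 0.0940 for *Kcnn4*, -0.0472 to 0.120 for *Ano1*, -0.0391 to 0.0230 for *Gucy2c* (0.0217 after median ratio scaling), -0.0324 to 0.141 for *Car12* and -0.102 to 0.00601 for *Slc12a7*. The fibroblast sum went from -0.01 to 0.0058 (log2) with that scaling. The cause was not tested for any of these. With 3 samples a group, a difference below the intervals given would not have been seen. Members under 1 FPKM rest on unequal numbers of estimated fragments. These were at most 2.9 per sample for *Aqp3*, but 145.9 to 311.4 for *Kcnma1*, whose exons are long.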

Other observations

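Ratios within a sample, chosen after the values were seen, set pairs of related genes side by side without regard to scaling. *Aqp8* over *Aqp4* was 0.435, 0.372 and 0.416 in *Zfp90* fl/fl samples and 0.591, 0.703 and 0.922 in *Zfp90* ΔIEC samples. *Slc16a1* over *Slc5a8* was 0.826, 0.835 and 0.915 against 1.14, 1.15 and 1.23. For the exchangers, *Slc9a3* over *Slc9a2* was 0.452, 0.644 and 0.586 against 0.838, 0.982 and 1.01, and *Slc26a3* over *Slc26a2* was 1.10, 1.17 and 1.28 against 1.43, 1.53 and 1.75. The ligand ratio *Guca2a* over *Guca2b* was 69.99, 71.2 and 67.9 against 79.99, 133 and 104, so that *Guca2b* RNA was far below *Guca2a* RNA in every sample. Peptides were not measured here. These 5 ratios did not overlap between genotypes, which for *Slc16a1* over *Slc5a8* follows from the values of each gene given above. *Scnn1b* over *Scnn1a* (0.0467, 0.0748 and 0.0723 against 0.0944, 0.0768 and 0.0850) did not overlap either. The same held for *Guca2a* over *Gucy2c* (9.62, 11.7 and 9.25 against 12.6, 16.96 and 13.6). In contrast, *Car1* over *Car2*, neighbours on chromosome 3 with 77.9 kb between them, overlapped at 11.2, 17.5 and 12.1 against 13.9, 26.1 and 18.6.

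Without *Car1*, the members had total FPKM of 2743, 2889 and 2923 in the *Zfp90* fl/fl group, below the 3303, 3529.9 and 3378 of the *Zfp90* ΔIEC group. Of the other transport genes, *Oxsr1* and *Vipr1*, named after their values were seen, were the 2 that were lower without overlap. *Oxsr1*, a kinase of the same family as *Stk39*, was at 14.8, 14.3 and 14.3 against 12.9, 14.1 and 13.8 FPKM. *Vipr1*, a receptor of the secretagogue vasoactive intestinal peptide, was at 50.9, 51.1 and 52.2 against 47.5, 46.3 and 50.5 FPKM (limma adjusted p = 0.482).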
